A study of Mus musculus with 23 samples.

Results

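The 76 mitochondrial ribosomal protein genes were taken by symbol, as Mrpl or Mrps followed by a digit, from 24917 gene loci counted in mouse colonic epithelium, which was isolated from the whole colon with EDTA. Of these, 47 (Mrpl) are named for the large subunit and 29 (Mrps) for the small subunit of the mitochondrial ribosome, and all 76 had enough reads to be tested. The 23 samples came from male C57BL/6 mice that entered 1 of 3 dietary regimens at 6 weeks of age. Control mice (LF) ate a diet with 10% fat for 43 weeks, obese mice (HF) ate a diet with 60% fat for 43 weeks, and formerly obese mice (HF-LF) ate the 60% fat diet for 15 weeks and then the 10% fat diet for 28 weeks, with lard as the source of fat in each diet. Batch 1 held 4 LF, 3 HF and 4 HF-LF samples and batch 2 held 4 LF, 3 HF and 5 HF-LF samples, where a batch is only what the sample titles call one. The comparisons ask whether expression of these genes differed between obese and control mice, and where it stood after the diet was switched.

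The mitochondrial ribosome (mitoribosome) is the organelle's own translation machine. It makes the few core subunits of the respiratory chain and of ATP synthase that mitochondrial DNA still encodes, while its own proteins are all encoded in the nucleus, made in the cytosol and imported. Its small subunit reads the mRNA and its large subunit joins the amino acids. In the colonic epithelium, mitochondria supply much of the energy of the absorptive cells through oxidation of fatty acids, above all of butyrate from bacterial fermentation. The 76 genes lay on 17 chromosomes, with 10 of them on chromosome 11. The RNAs that mitochondrial DNA encodes, including both mitoribosomal rRNAs, were not analysed here.

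Each member was expressed in every sample. Per length of its exons, the mean level over all 23 samples ran from 4.61 RPKM (reads per kilobase of exon at equal depth, computed here with GENCODE M21 exon lengths) for Mrps25 to 82.5 RPKM for Mrpl52. After Mrpl52 the highest levels per length were those of Mrps21 at 66.8 RPKM and Mrpl33 at 63.8 RPKM, and the lowest beside Mrps25 were those of Mrps33 at 4.81 RPKM and Mrpl17 at 5.02 RPKM. Members of both subunits thus stood at the top and at the bottom of the range. As a group the genes are short, with a median exon length of 1339.5 bases against 3280 bases over the tested genes that had a length. Mrpl17 and Mrps25, at 7605 and 6073 bases of annotated exon, are long for the group, which lowers their level per length.

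The depth of the samples, as the sum of their gene counts, lay between 29189922 and 46498521 in batch 1, with a median of 36151372, and from 31607019 to 65320947 in batch 2, with a median of 38828993. The 6 epithelial markers Epcam, Cdh1, Krt8, Krt20, Vil1 and Cdx2 together took between 9073 and 12920 CPM (counts scaled to the depth of the library, with TMM factors over all samples) in every sample. By the rule given below, 0 of them were called between HF and LF over both batches (9% of all genes higher, 9.11% lower), which does not show equal levels. Relative to LF, their mean log2 level was -0.075 to 0.194 in HF samples of batch 1 and 0.071 to 0.117 in those of batch 2. The LF samples of batch 2 ranged from -0.082 to 0.129. Markers of other cells were present at far lower sums, with leukocyte markers between 12.54 and 28.62 CPM in LF samples and adipocyte markers between 0 and 0.3071 CPM over all samples. The sums of the 5 smooth muscle and of the 5 fibroblast markers varied widely within groups and are given below beside the results.

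The starts of these genes were examined for what the members share. Sequences of 67 of the 76 members were found in the RefSeq table of promoter windows (GRCm38.p6), each window running from 250 bases before to 50 after a start, and 4 short motifs were searched on both strands. CCGGAAG, a core that ETS factors such as GABPA bind, was in the windows of 24 of 67 members (35.8%) against 9.93% of all 27025 genes in the table. The site of NRF1, searched as GCGC, any base, then TGCGC, was in 12 (17.9%) against 5.19%, and AANATGGCG, a YY1 site, in 10 (14.9%) against 2.76%. CCCGCCC, an SP1 site, was in 28 (41.8%) against 27.9%. The genes of the table were not limited to those expressed in these samples, as all members were. The shares therefore do not set the members apart from expressed genes in general. NRF1 and GABPA are known as activators of nuclear genes for mitochondrial proteins.

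The upstream sequences of 4 members and the gap between a pair of members are printed because they hold these motifs and belong to genes with different results in the diet comparison. Mrpl45, Mrps22, Mrpl46 and Mrps11 were among the genes called higher in HF mice, while Mrpl12 and Mrps27 had the smallest differences of all. They were chosen after their values were seen. All letters are from RefSeq, build GRCm38.p6, in the direction of the gene (the gap on the plus strand), and capitals mark the motifs on either strand.
Mrpl45, chr11:97315556-97315715, plus strand, the last 160 bases before the start, 2 matches to the NRF1 motif: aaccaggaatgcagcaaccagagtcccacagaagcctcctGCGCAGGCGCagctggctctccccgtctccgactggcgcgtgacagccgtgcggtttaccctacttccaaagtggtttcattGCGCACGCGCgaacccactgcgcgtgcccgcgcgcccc
Mrpl12, chr11:120484477-120484636, plus strand, the last 160 bases before the start, 1 match to the NRF1 motif: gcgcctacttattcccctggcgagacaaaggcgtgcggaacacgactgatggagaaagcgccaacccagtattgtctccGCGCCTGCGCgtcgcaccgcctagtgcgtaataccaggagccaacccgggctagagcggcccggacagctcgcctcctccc
Mrps22, chr9:98601680-98601839, minus strand, the last 160 bases before the start, an SP1 and an ETS match: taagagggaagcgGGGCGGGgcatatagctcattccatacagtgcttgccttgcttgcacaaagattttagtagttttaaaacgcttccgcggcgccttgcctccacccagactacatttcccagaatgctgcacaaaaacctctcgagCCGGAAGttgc
Mrps27, chr13:99344626-99344785, plus strand, the last 160 bases before the start, an ETS match: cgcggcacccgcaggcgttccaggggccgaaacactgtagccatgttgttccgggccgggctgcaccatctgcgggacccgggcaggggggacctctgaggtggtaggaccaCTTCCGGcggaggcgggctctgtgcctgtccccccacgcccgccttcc
Mrpl46-Mrps11, chr7:78783090-78783130, plus strand, the 41 bases between the starts, an SP1 match: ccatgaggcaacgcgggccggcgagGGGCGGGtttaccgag

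Obese mice had higher levels of nearly all mitochondrial ribosomal protein genes than control mice, by a small and similar amount. Over both batches the median difference between HF and LF was 0.255 on the log2 scale, a fold of 1.193, with the middle part of the genes between 0.205 and 0.332. The median over all 14385 genes tested was -0.008, with quartiles at -0.192 and 0.156. Of the 76 members, 75 had a positive difference (48.7% of all genes did). A gene was called where its fold exceeded 1.2 and its p, adjusted after Benjamini and Hochberg, was below 0.05 in edgeR's quasi-likelihood test. By this rule 35 members rose and 0 fell, against 9% of all genes called higher and 9.11% called lower. Another 24 members passed the adjusted p but stayed under the fold, which made 59 in all (background 15%). The fit over both batches took all samples as separate mice, which is not established. Without HF batch 1 replicate 3 the count of members called higher was 23, and the share of all genes called was not examined. With each sample's sum of fibroblast markers as a term in the fit the count of members was 11 (2.57% of all genes higher). With gene length offsets the count was 19 (6.97% of all genes higher), the median was 0.157 and 67 members were positive. Both fits are described further below.

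In each sample the members moved largely as 1 block. They took 0.2148% ± 0.02584 of all counts in LF mice of batch 1 (SD, n = 4) and 0.2573% ± 0.02599 in HF mice (n = 3). In batch 2 they took 0.2453% ± 0.01116 in LF mice (n = 4) and 0.28% ± 0.009525 in HF mice (n = 3). Averaged over the members on the log2 scale and set against the LF samples of their batch, the HF samples stood at 0.36, 0.074 and 0.45 in batch 1 and at 0.15, 0.30 and 0.22 in batch 2. The LF samples ranged from -0.22 to 0.20 in batch 1 and from -0.081 to 0.12 in batch 2. The HF sample at 0.074, replicate 2 of batch 1, lay within the LF range, and the other 5 lay between 0.15 and 0.45. In HF replicate 2 of batch 1, 54 of the 76 members were above their LF mean, against 74 to 76 in the other 5 HF samples. Among LF samples the same count went from 1 to 75 in batch 1, so that control samples also differed from each other across the whole set.

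**Figure D1:**
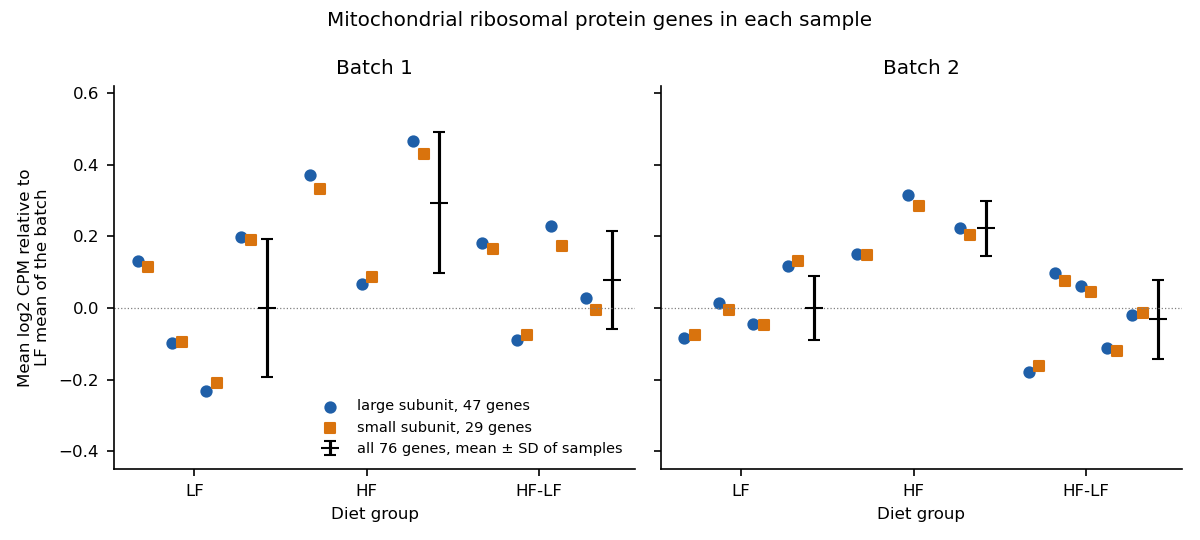
Mean log2 CPM of the 47 large subunit genes (circles) and 29 small subunit genes (squares) in each sample, relative to the LF mean of the batch; bars give the mean ± SD of all 76 genes over the samples of a group. HF samples stand above the LF mean in both batches, HF-LF samples spread around it, and circle and square of a sample lie close together.

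Within batch 1 no member passed the threshold between HF and LF, and neither did any other gene (0% of all genes higher and 0% lower). With DESeq2 5 members and 2.06% of all genes were called higher. At an unadjusted p under 0.05, 38 members were higher and 0 lower by edgeR (12% of all genes were higher and 10.2% lower), 75 members had a positive difference (background 49.5%), and the median was 0.298. For 9 members all 3 HF samples exceeded all 4 LF samples (background 6.48%). The largest difference was that of Mrpl35, at 0.585 with a standard error of 0.14 (adjusted p = 0.139). Without HF replicate 2 of this batch, 21 members were called higher, and the share of all genes called was not examined.

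Within batch 2 the threshold was passed by 11 members that rose and by 0 that fell, against 3.03% of all genes higher and 4.4% lower. They were Mrpl1, Mrpl20, Mrpl32, Mrpl36, Mrpl39, Mrpl46, Mrpl47, Mrps2, Mrps14, Mrps18c and Mrps22. All 76 members had a positive difference (background 48%), the median was 0.218, and for 40 members the HF samples exceeded every LF sample (background 13.8%). The count of calls moved with single libraries. It was 0 without LF replicate 1, 2 or 3 or without HF replicate 2 or 3, 33 without LF replicate 4, 17 without HF-LF replicate 1 and 4 without HF-LF replicate 5, while the median stayed between 0.195 and 0.266 over these and the other omissions. For these omissions the share of all genes called was not examined. With the replicate number as a term in the fit, 22 members were called higher, and the share of all genes called higher was 6.2%. With the fibroblast markers as a term the median was 0.081, 70 members were positive and 0 were called (0.0556% of all genes higher). With gene length offsets the median was 0.095, 59 were positive and 8 were called higher (2.72% of all genes higher). Both fits are described below.

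The differences of the 2 batches were also set against each other gene by gene. Across the 76 members, the differences between HF and LF in batch 1 and in batch 2 had a Pearson r of 0.56 (Spearman rho 0.575). The sign was the same for 75 members, which follows from nearly all members being positive in each batch. Over 14180 genes tested in both batches r was 0.467. Genes of 1 library share its depth and quality and are not independent, so no p is given. The sources used here do not say if the batches came from separate mice. Their agreement is therefore not shown to be that of independent animals. An interaction between batch and diet passed an adjusted p of 0.05 for 0 members and 0 genes (edgeR). At an unadjusted p under 0.05 by edgeR it was passed by 2 of the 76 members, a share below the 6.56% of all genes. The smallest adjusted p among members was 0.757.

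**Figure D2:**
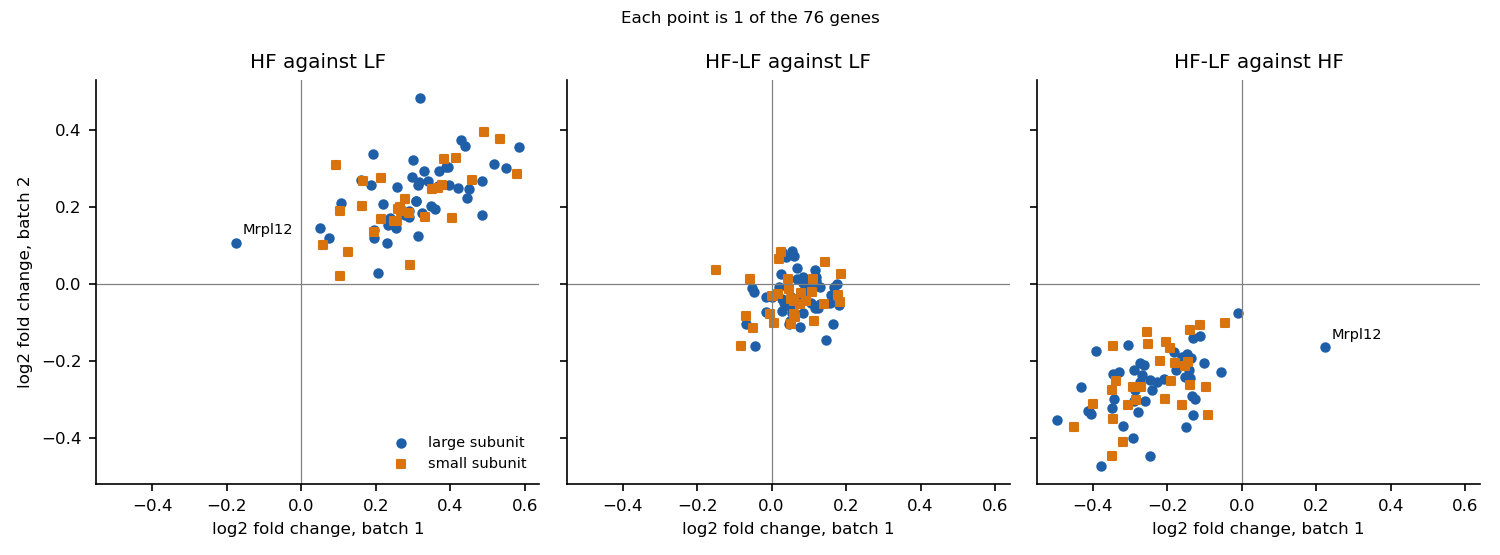
Log2 fold change of each of the 76 genes in batch 1 (x axis) and batch 2 (y axis) for HF against LF, HF-LF against LF and HF-LF against HF; circles are large subunit genes and squares small subunit genes. For HF against LF 75 of 76 genes have the same sign in both batches, for HF-LF against LF 30 do, and Mrpl12 is the gene that stands apart in the first and the third panel.

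Both subunits took part. Over both batches 25 of 47 large subunit genes (53.2%) and 10 of 29 small subunit genes (34.5%) were called higher in HF mice (9% of all genes). The median difference was 0.276 for the large and 0.233 for the small subunit, 0.043 apart. The fold threshold, 0.263 on the log2 scale, lies between these medians, and the shares called depend on it. At an unadjusted p under 0.05 by edgeR, 85.1% of the large and 86.2% of the small subunit genes were higher (share of all genes not given). The subunits were 0.044 apart in batch 1 and 0.046 in batch 2, always with the large subunit higher. When Mrps30 and Mrps18a, which sit in the large subunit in structures of the mammalian mitoribosome, were counted there, the gap was 0.043 in batch 1, 0.025 in batch 2 and 0.035 over both. Within single HF samples the mean level of large subunit genes relative to small subunit genes differed from that of LF mice by -0.021 to 0.04 in batch 1 and by 0.004 to 0.031 in batch 2, where samples of 1 group differed by an SD of 0.0217. Whether the subunits differ was not tested.

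**Figure D3:**
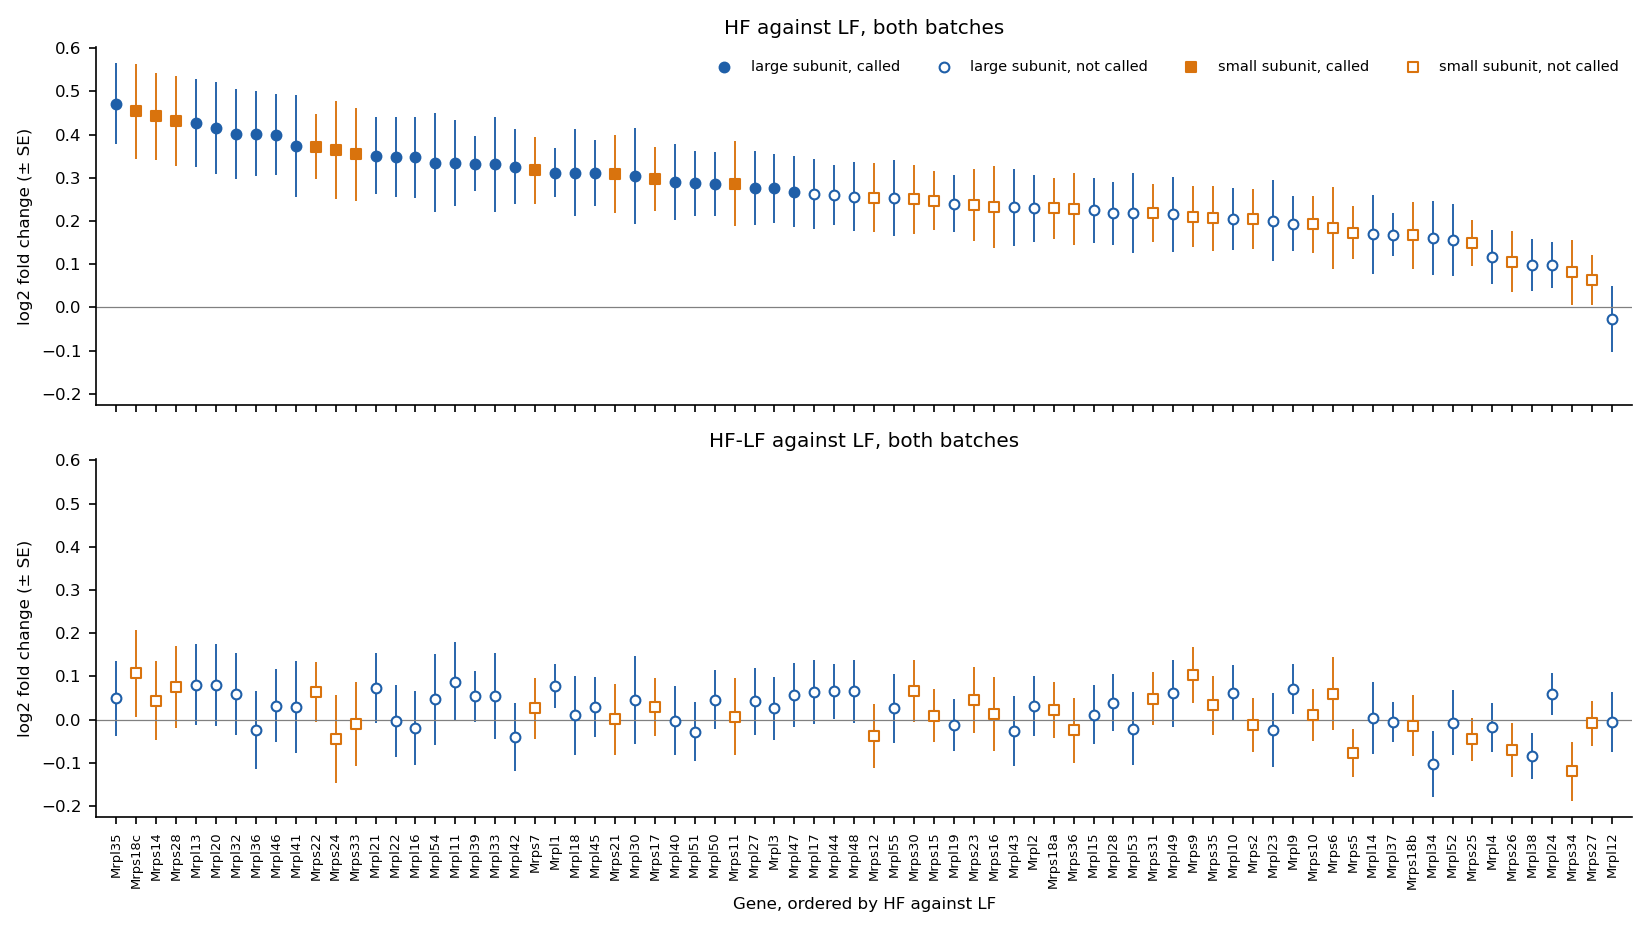
Log2 fold change ± SE over both batches for each of the 76 genes, HF against LF above and HF-LF against LF below, in the order of the upper panel; filled symbols passed an adjusted p under 0.05 and a fold above 1.2. In the upper panel all genes but Mrpl12 are above 0 and 35 are filled, and in the lower panel the genes lie between -0.12 and 0.107 with none filled.

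Among large subunit genes, Mrpl1 had the smallest p. It encodes the protein of the L1 stalk, which moves as spent tRNAs leave the ribosome (Entrez 94061, chr5:96210115-96266727, plus strand, mm10). Its level in batch 1 was 27.5, 23.6, 26.2 and 28.9 CPM in LF mice, 34.5, 30.2 and 35.6 CPM in HF mice and 28.0, 25.3, 29.2 and 29 CPM in HF-LF mice. In batch 2 it was 21.9, 25.1, 24.1 and 25.3 CPM in LF, 28.5, 30.7 and 29.3 CPM in HF and 23.9, 24.4, 27.9, 25.8 and 25.8 CPM in HF-LF mice. In both batches every HF sample was above every LF and every HF-LF sample. The difference between HF and LF over both batches was 0.31 (SE 0.056, adjusted p = 0.00217, edgeR's quasi-likelihood test with Benjamini-Hochberg adjustment), a fold of 1.242.

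Mrpl35 had the largest difference, 0.47 (SE 0.094, adjusted p = 0.00425 by the same edgeR test). It encodes the mitochondrial counterpart of bacterial protein bL35 (Entrez 66223, chr6:71812997-71823784, minus strand). Its level in batch 1 was 20.6, 17.4, 15.8 and 21.5 CPM in LF and 28.5, 23.6 and 32.5 CPM in HF mice. In batch 2 it was 20.4, 22.4, 23.1 and 25 CPM in LF and 25.3, 31.7 and 30.3 CPM in HF mice. The groups did not overlap in either batch, although HF replicate 1 of batch 2 lay only just above the highest LF sample. Mrpl39, a protein with no bacterial ribosomal counterpart that resembles a part of threonyl-tRNA synthetase (Entrez 27393, chr16:84717580-84735302, minus strand), behaved alike. It was at 28.4, 22.9, 22.8 and 25.7 CPM in LF and 33.4, 29.3 and 34.3 CPM in HF mice of batch 1, and at 26.1, 27.3, 27.9 and 30.8 CPM in LF and 32.5, 37.4 and 33.2 CPM in HF mice of batch 2. The difference was 0.33 (SE 0.064, adjusted p = 0.00343, edgeR).

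For 7 members the HF samples exceeded every LF sample of their batch in both batches (9.21% of the members, background 2.29%). These were Mrpl1, Mrpl21, Mrpl35, Mrpl37, Mrpl39, Mrpl50 and, from the small subunit, Mrps10. Mrpl37 and Mrps10 did so with differences too small for the fold threshold, 0.17 (SE 0.05) and 0.19 (SE 0.066). Mrpl37 is a large subunit protein particular to mitochondria. It ran between 31.3 and 32.0 CPM in the LF mice of batch 2 and at 34.1, 35.7 and 34.7 CPM in the HF mice.

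In the small subunit, Mrps22, a protein particular to the mitochondrial ribosome (Entrez 64655, chr9:98588730-98601679, minus strand), had the smallest p. Its level in batch 1 was 18.8, 16.5, 15.4 and 20.4 CPM in LF and 24.7, 20 and 26.6 CPM in HF mice. In batch 2 it was 16.6, 17.0, 17.4 and 19.5 CPM in LF and 19.7, 23.5 and 23.3 CPM in HF mice. HF replicate 2 of batch 1 fell just below the highest LF sample, and in batch 2 the groups did not overlap. The difference was 0.37 (SE 0.076, adjusted p = 0.00432, edgeR). Mrps14, the relative of a bacterial protein of the head of the small subunit, differed by 0.44 (SE 0.1, adjusted p = 0.00606). Its samples overlapped, with LF at 18.4 to 25.4 CPM and HF at 23.9 to 34.6 CPM in batch 1, and LF at 22.9 to 32.3 CPM and HF at 31.7 to 37.9 CPM in batch 2.

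Mrps18a, Mrps18b and Mrps18c are paralogs that each resemble the same bacterial protein, bS18, and occupy different places in the ribosome. Their differences were 0.23 (SE 0.071, adjusted p = 0.0215), 0.17 (SE 0.077, adjusted p = 0.101) and 0.454 (SE 0.11, adjusted p = 0.00785) by edgeR, and of the 3 Mrps18c passed both thresholds. Mrps18c was at 24.6, 16.8, 15.5 and 23.2 CPM in LF and 29.3, 21.6 and 36.0 CPM in HF mice of batch 1. In batch 2 it was at 21.3, 23.9, 21.7 and 25.7 CPM in LF and 28.3, 32.2 and 29.8 CPM in HF mice. The batch 1 groups overlapped and the batch 2 groups did not. Whether the paralogs differ from each other was not tested. Mrps30, a large subunit protein despite its name, differed by 0.25 (SE 0.079, adjusted p = 0.0239), and Mrps36, which is known as a component of the alpha-ketoglutarate dehydrogenase complex rather than of the ribosome, by 0.23 (SE 0.083, adjusted p = 0.0428). Neither reached the fold of 1.2.

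Of the other members with the smallest p, Mrpl46, Mrpl13, Mrps28 and Mrps7 rose by 0.40 (SE 0.093), 0.43 (SE 0.10), 0.43 (SE 0.10) and 0.32 (SE 0.077), with adjusted p between 0.0067 and 0.00781 by edgeR. Mrpl13 and Mrps7 are counterparts of the bacterial proteins uL13 and uS7, and Mrps7 helps to nucleate the head of the small subunit. Mrps28 in batch 2 was at 15.7, 17.1, 15.1 and 20.4 CPM in LF and 20.2, 21.4 and 20.9 CPM in HF mice, so that a single LF sample, replicate 4, reached the HF values. Mrpl32, whose maturation by the m-AAA protease is a known step of mitoribosome assembly, had the largest difference of batch 2, at 0.48 (SE 0.13, adjusted p = 0.0388). It was there at 14.7, 17.0, 14.5 and 18.8 CPM in LF and 20.7, 25.8 and 21.7 CPM in HF mice. Among the most abundant members per length, Mrps21 rose by 0.31 (adjusted p = 0.0167) and Mrpl33 by 0.33 (adjusted p = 0.0293), while Mrpl52 differed by 0.16 (adjusted p = 0.155). Among those with the lowest levels per length, Mrps33 rose by 0.35 (adjusted p = 0.0195 by edgeR). Mrpl17 at 0.262 (adjusted p = 0.0215) and Mrps25 at 0.15 (adjusted p = 0.0405) stayed under the fold. Without regard to length Mrpl17 was not low, with a mean of 38.2 CPM against 7.4 CPM for Mrps33.

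The calls of Mrps21 and Mrpl33 rested on single libraries. Mrps21 was no longer called without HF batch 1 replicate 3, and Mrpl33 without LF batch 1 replicate 2, LF batch 1 replicate 3, HF batch 1 replicate 3 or HF batch 2 replicate 2. The lowest differences over all omissions were 0.255 for Mrps21 and 0.206 for Mrpl33, and the highest adjusted p by edgeR were 0.0513 and 0.102. Mrpl1, Mrpl39, Mrpl35 and Mrps22 were called in 23 of 23 such fits.

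**Figure D4:**
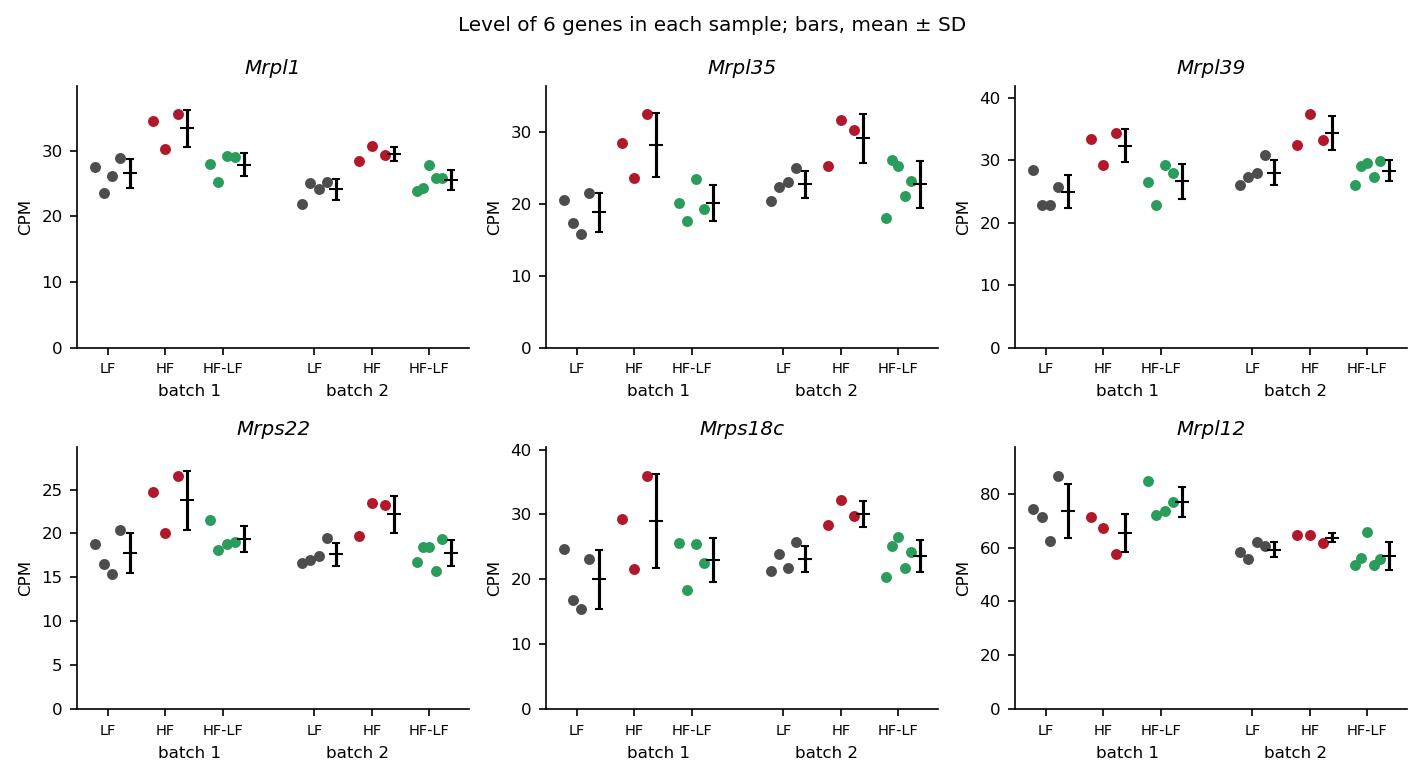
Level in CPM (y axis) of Mrpl1, Mrpl35, Mrpl39, Mrps22, Mrps18c and Mrpl12 in each sample of the 3 diet groups and both batches, with bars for mean ± SD. The HF samples of Mrpl1, Mrpl35 and Mrpl39 are above all LF samples of their batch, and those of Mrpl12 are not.

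Mrpl12 was the exception. Its protein belongs to the stalk of the large subunit that recruits translation factors and is also known to bind the mitochondrial RNA polymerase (Entrez 56282, chr11:120484669-120488754, plus strand). In batch 1 it was at 74.2, 71.5, 62.5 and 86.8 CPM in LF mice, 71.5, 67.2 and 57.6 CPM in HF mice and 84.7, 72.0, 73.7 and 77.0 CPM in HF-LF mice. In batch 2 it was at 58.2, 55.9, 62.2 and 60.5 CPM in LF, 64.7, 64.8 and 61.8 CPM in HF and 53.7, 56.0, 65.7, 53.4 and 55.6 CPM in HF-LF mice. The HF samples were thus low in batch 1 and high in batch 2, overlapping LF in both. The difference between HF and LF was -0.175 (SE 0.11, adjusted p = 0.344) in batch 1, 0.11 (SE 0.07, adjusted p = 0.296) in batch 2 and -0.027 (SE 0.077, adjusted p = 0.807) over both, by edgeR. The batches differed by 0.279 (SE 0.13), with an unadjusted p of 0.0495 and an adjusted p of 0.759 for the interaction by edgeR.

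The next smallest differences over both batches were those of Mrps27, Mrps34 and Mrpl24. Mrps27, a pentatricopeptide protein of the small subunit that binds RNA, differed by 0.063 (SE 0.058, adjusted p = 0.414). It was at 19.9, 23, 22.1 and 24.7 CPM in LF and 24.9, 23.9 and 23.7 CPM in HF mice of batch 1, and at 27.3, 25.4, 25.5 and 25.3 CPM in LF and 24.5, 27.6 and 26.7 CPM in HF mice of batch 2. The groups overlapped in both batches. Mrps34, which is needed for a stable small subunit, differed by 0.081 (SE 0.075, adjusted p = 0.419) and Mrpl24 by 0.098 (SE 0.054, adjusted p = 0.165), by edgeR. Their standard errors lay at or below the middle of those of the members that rose. Mrps27 and Mrpl24 overlap a locus on the opposite strand, as do 5 other members, and 4 overlap one on the same strand (11 of 76 in all, among them Mrpl21 and Mrps25 of those named here). Whether reads were counted by strand is not given in the sources used here.

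Many mitochondrial ribosomal protein genes start back to back with another gene. Of the 76 members, 22 (28.9%) had a gene on the opposite strand that starts within 500 bases and runs away from them, against 7.63% of all 24917 loci. Those loci include genes with too few reads to be tested, and the share among tested genes alone was not examined. Mrpl46 and Mrps11 share such a start with each other, 42 bases apart. Mrpl46 was at 24.1, 17.8, 21.8 and 28.4 CPM in LF and 32.7, 24.2 and 37.0 CPM in HF mice of batch 1, and Mrps11, the counterpart of bacterial uS11, at 11.2, 9.91, 8.94 and 13.2 CPM in LF and 14.5, 12.0 and 16.6 CPM in HF mice. In batch 2 Mrpl46 was at 22.5, 24.4, 22.4 and 28.5 CPM in LF and 29.4, 32.6 and 32.0 CPM in HF mice. Mrps11 was then at 13.6, 14.1, 15.0 and 15.7 CPM in LF and 15.3, 17.8 and 16.2 CPM in HF mice. Both passed the thresholds over both batches, Mrps11 at 0.29 (SE 0.098, adjusted p = 0.0332, edgeR).

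The neighbours that are not themselves members were higher and lower in equal number. Of 20 such genes 18 were tested, and 9 of the 18 had a positive difference between HF and LF over both batches (48.7% of all genes did). Of the 18, 3 were called higher and 1 lower (9% and 9.11% of all genes). Their median difference was 0.006, where that of their mitochondrial ribosomal partners was 0.281. Psma2 (a proteasome subunit beside Mrpl32, 0.47, adjusted p = 0.00612), Tcp1 (a chaperonin subunit beside Mrpl18, 0.39, adjusted p = 0.00805) and Ndufb5 (a complex I subunit beside Mrpl47, 0.32, adjusted p = 0.0279) rose, by edgeR. Gga3 (a trafficking adaptor beside Mrps7, -0.39, adjusted p = 0.0122) fell. Helq, a helicase gene beside Mrps18c, differed by -0.195 (adjusted p = 0.13) and Ighmbp2, another helicase gene beside Mrpl21, by -0.21 (adjusted p = 0.11). These neighbours were named after their values were seen.

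**Figure D5:**
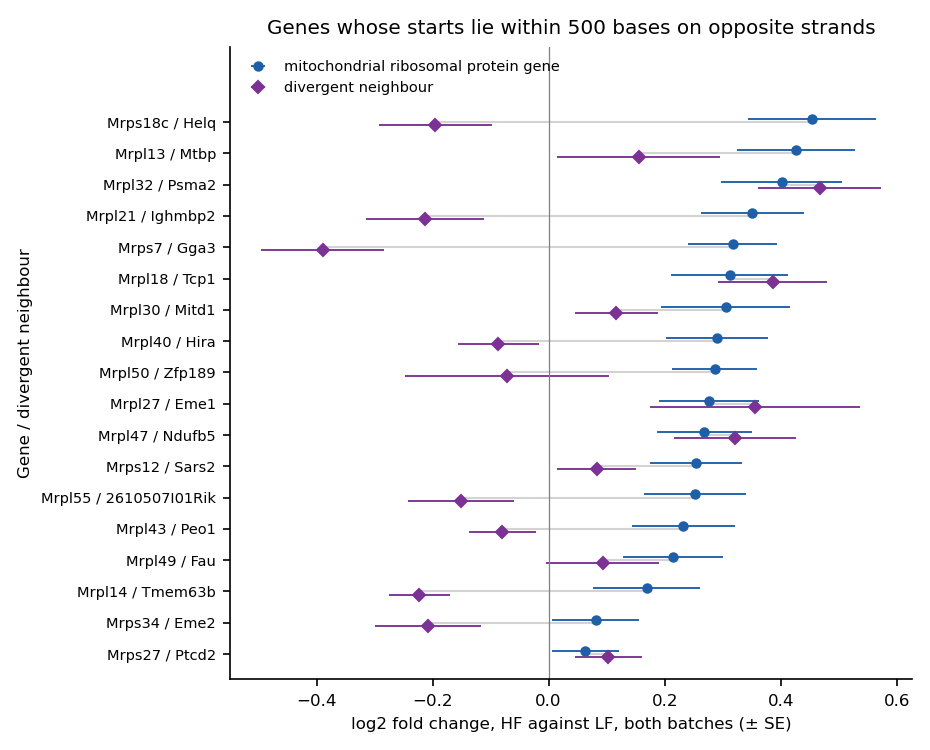
Log2 fold change ± SE (x axis, HF against LF over both batches) of 18 mitochondrial ribosomal protein genes (circles) and of the tested gene that starts within 500 bases on the opposite strand (diamonds), 1 pair a line. All circles are above 0, while 9 of the 18 diamonds are below it (48.7% of all tested genes were above 0).

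The motifs did not separate members by the size of their difference between HF and LF. The 12 members with an NRF1 match had a median difference of 0.261 and the 55 without 0.256. With and without an ETS match the medians were 0.259 and 0.26, with and without YY1 0.282 and 0.256, and with and without SP1 0.258 and 0.26. Mrpl12, at -0.027, and Mrpl45, at 0.31 (SE 0.077), both carry the NRF1 motif in the sequences printed above. A match describes letters in a window and does not show a bound site.

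No member was called different between formerly obese and control mice. Between HF-LF and LF 0 of 76 members were called in batch 1, in batch 2 or over both (background 0% higher and 0% lower in batch 1, 0% and 0.00696% in batch 2, 0% and 0% over both), and DESeq2 also called 0. At an unadjusted p under 0.05 by edgeR, 0 members differed in batch 1 (background 2.5% higher and 2.79% lower), 2 were lower in batch 2 (2.15% higher and 2.5% lower) and 0 differed over both (1.92% and 2.19%). The 2 were Mrps34 at -0.16 and Mrpl4 at -0.11. The median difference was 0.062 in batch 1, -0.034 in batch 2 and 0.026 over both batches (all genes, 0.002, 0.005 and 0.009), and 64, 22 and 49 members were positive (background 50.3%, 52.1% and 54.1%). The sign was therefore not shared by the batches. These counts depended on the fit, since with the fibroblast markers as a term 11 members in batch 1 and 29 in batch 2 had an unadjusted p under 0.05 by edgeR, with medians of 0.148 and -0.121 and 0 called. Over both batches single members ranged from -0.12 for Mrps34 to 0.107 for Mrps18c, and for 0 members did the HF-LF samples lie clear of LF in either batch. Of all genes, 0.943% lay above and 1.52% below in batch 1, 0.577% and 0.696% in batch 2, and 0.00695% and 0.0348% in both.

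Mrps34 (SE 0.068, unadjusted p = 0.0887 by edgeR, adjusted p = 0.98) and Mrps9, at 0.103 (SE 0.064, unadjusted p = 0.12 by edgeR, adjusted p = 0.98), had the smallest p over both batches. Mrps34 was at 32.7, 25.5, 24 and 33.7 CPM in LF and 28.9, 25.3, 31.3 and 24.9 CPM in HF-LF mice of batch 1. In batch 2 it was at 27.9, 28.9, 26.6 and 31.6 CPM in LF and 24.7, 27.4, 27.1, 23.8 and 25.6 CPM in HF-LF mice, with the groups overlapping in both batches. For Mrpl1 the difference was 0.077 (SE 0.051) and for Mrpl35 0.049 (SE 0.086). A p that misses the threshold does not show that the levels were equal, and these standard errors give the size of difference that could have been missed.

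Compared directly with obese mice, formerly obese mice had lower levels of most of these genes. These comparisons use the same HF samples as those above and are not independent of them. Over both batches 28 members fell and 0 rose in HF-LF against HF (background 4.9% lower and 5.44% higher), 17 of the large and 11 of the small subunit, and 42 passed the adjusted p alone (background 8.04%). The median was -0.239 (all genes, 0.012), and 75 members were negative (background 47.9%). The count was 16 without HF batch 1 replicate 1, 43 without HF batch 1 replicate 2, 12 without HF batch 1 replicate 3 and 13 without HF batch 2 replicate 2, with medians between -0.284 and -0.226. For these omissions, too, the share of all genes called was not examined. With the fibroblast markers as a term the count was 1 (39 of all 14385 genes lower), with a median of -0.17. With gene length offsets the count was 13 (490 of all 14385 genes lower), with a median of -0.157.

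Within batch 1 the threshold was passed by 0 members in HF-LF against HF (background 0% lower and 0.00693% higher), also by DESeq2, with 19 lower at an unadjusted p under 0.05 (background 6.04%) and a median of -0.248. For 7 members all HF-LF samples of batch 1 were below all HF samples (background 3.68%) and for 1, Mrpl12, they were above (background 4.26%). Within batch 2, 33 members fell, 19 large and 14 small, and 0 rose (background 5.61% lower and 8.89% higher), with a median of -0.252. For 47 members all HF-LF samples of batch 2 were below all HF samples (background 12.4%). The batch 2 count was 8 without HF-LF replicate 1, 7 without HF-LF replicate 4, 0 without HF replicate 2 and 2 without HF replicate 3. Here again the share of all genes called was not examined. The interaction with batch passed for 0 members (adjusted p of 0.641 or more, edgeR), with 1 member, Mrpl12, at an unadjusted p under 0.05 (background 7.68%).

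In this comparison Mrpl35 had the smallest p, with a difference between HF-LF and HF of -0.42 (SE 0.092, adjusted p = 0.0114), and Mrpl39 the next, at -0.28 (SE 0.063, adjusted p = 0.0132), by edgeR. Mrpl35 was at 20.1, 17.6, 23.5 and 19.3 CPM in HF-LF mice of batch 1 and at 18, 26.1, 25.2, 21.1 and 23.2 CPM in those of batch 2. HF-LF replicate 2 of batch 2 lay above the lowest HF sample there, at 25.3 CPM. Mrpl39 was at 26.5, 22.8, 29.3 and 28.0 CPM in HF-LF mice of batch 1 and at 26.0, 29, 29.5, 27.3 and 29.9 CPM in those of batch 2, where all stood below the HF samples. Mrps14 fell by 0.40 on the log2 scale (SE 0.097, adjusted p = 0.0154). Mrpl1, whose samples did not overlap, differed by -0.235 (SE 0.054, adjusted p = 0.0138) and stayed under the fold. Mrpl12 differed by 0.224 (SE 0.11, adjusted p = 0.472) in batch 1, where every HF-LF sample was above every HF sample, and by -0.16 (SE 0.067, adjusted p = 0.0909) in batch 2. Over both batches it differed by 0.022 (SE 0.075, adjusted p = 0.85), and the interaction with batch had an unadjusted p of 0.00623 and an adjusted p of 0.641 by edgeR. For 6 members, Mrpl1, Mrpl42, Mrps5, Mrps12, Mrps25 and Mrps33, every HF-LF sample was below every HF sample in both batches (background 0.994%). Mrps12, the counterpart of bacterial uS12 at the decoding site, differed by -0.29.

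Some mitoribosomal proteins have other symbols, and they were examined as a list of 7. All 7 on the list had positive differences between HF and LF over both batches, with a median of 0.261, and 3 were called higher and 0 lower (of all genes 48.7% were positive, 9% called higher and 9.11% lower). These were Chchd1 (0.39, SE 0.12, adjusted p = 0.0183), Ict1 (0.33, SE 0.086, adjusted p = 0.0101), a peptide release factor built into the large subunit, and Mrp63 (0.42, SE 0.12, adjusted p = 0.0182). Chchd1, a small subunit protein, had LF samples at 14.49 to 23.44 CPM and HF samples at 20.36 to 30.89 CPM in batch 1, and LF at 19.85 to 28.67 CPM and HF at 25.08 to 29.93 CPM in batch 2, so that the groups overlapped in both. Dap3, a GTP-binding protein of the small subunit, differed by 0.16 and Ptcd3 by 0.18, both under the fold. In HF-LF against HF 4 of the 7 fell (4.9% of all genes), Chchd1, Gadd45gip1, Ict1 and Mrp63, by 0.38, 0.29, 0.31 and 0.42 on the log2 scale.

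Of 16 translation factors that work with the mitoribosome, 3 rose between LF and HF over both batches and 0 fell, where 9% of all genes were called higher and 9.11% lower (median 0.16, 13 positive). These were Slirp, which stabilises mitochondrial mRNAs together with Lrpprc (0.49, SE 0.11, adjusted p = 0.00642), Mtrf1, of the release factor family (0.38, SE 0.1, adjusted p = 0.0103), and Mrrf, the recycling factor (0.28, SE 0.088, adjusted p = 0.0233). Of 27 assembly factors 1 rose, Fastkd2, which binds the large rRNA (0.28, SE 0.074, adjusted p = 0.0106), and 0 fell, a share below that of all genes (median 0.111, 23 positive). Of 19 mitochondrial tRNA synthetases, Yars2 rose (0.30, adjusted p = 0.0134) and Lars2 fell (-0.446, SE 0.15, adjusted p = 0.0276), shares below those of all genes, with a median of 0.102. In HF-LF against HF, Slirp fell by 0.44, Fastkd2 by 0.30 and Yars2 by 0.34 on the log2 scale, and Lars2 rose by 0.65.

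Genes that control mitochondrial transcription and biogenesis were about as often lower as higher. Of 15 genes of mitochondrial transcription and its regulators, 1 rose and 1 fell by edgeR, shares below those of all genes (9% and 9.11%). Tefm, the elongation factor of the mitochondrial RNA polymerase, rose (0.34, SE 0.11, adjusted p = 0.022). Ppargc1b, a coactivator of mitochondrial biogenesis, fell (-0.456, SE 0.12, adjusted p = 0.0095). The median of the list was 0.022 with 8 positive (48.7% of all genes were). The factors whose motifs were searched had differences of -0.027 for Nrf1 (SE 0.052), 0.056 for Gabpa (SE 0.05) and 0.049 for Yy1 (SE 0.056), values given beside the motifs although the rule for named genes did not choose them. An mRNA level does not give the activity of a factor.

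Other groups moved in the same direction as the mitochondrial ribosomal protein genes between HF and LF. The median over both batches was 0.26 for 79 tested cytosolic ribosomal proteins, of which 18 rose and 2 fell (9% of all genes higher and 9.11% lower), and 0.271 for 36 nuclear subunits of complex I, of which 20 rose and 0 fell. The 10 cycling markers had a median of 0.687 in batch 1, 0.131 in batch 2 and 0.391 over both, where 7 rose. The medians of the mitochondrial ribosomal protein genes were 0.298 in batch 1 and 0.218 in batch 2. The interaction between batch and diet passed an adjusted p of 0.05 for 0 genes by edgeR, these markers included. Whether the 2 sets differ in this was not tested. Relative to LF, the mean of the cycling markers was 0.598, 0.37 and 1.226 in the HF samples of batch 1 and 0.049 to 0.253 in those of batch 2. The part of cycling cells in the differences was not tested.

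Markers of cells outside the epithelium also differed between samples. The 5 smooth muscle markers summed to 1.128 to 10.38 CPM in LF and 0.5225 to 8.829 CPM in HF mice of batch 1, and to 4.932 to 27.73 CPM in LF and 0.8229 to 4.154 CPM in HF mice of batch 2. The 5 fibroblast markers summed to 14.96 to 26.41 CPM in LF and 2.794 to 28.74 CPM in HF mice of batch 1, and to 8.643 to 31.41 CPM in LF and 4.063 to 15.16 CPM in HF mice of batch 2. Of the 5 markers of each list 0 were called, with medians of -1.473 and -0.644 over both batches. The level of the mitochondrial ribosomal protein genes ran against the fibroblast sum within most groups. In 5 of the 6 groups of diet and batch, the sample with the highest member level was the one with the lowest fibroblast sum, and in 5 the sample with the lowest member level had the highest fibroblast sum. For the smooth muscle sum the same counts were 5 and 3 of 6. HF batch 1 replicate 3, for example, had a member level of 0.45 and a fibroblast sum of 2.794 CPM, and HF batch 1 replicate 2 had 0.074 and 28.74 CPM. In bulk samples, a change in the share of a cell type and a change in RNA per cell cannot be told apart.

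With the log2 fibroblast sum of each sample as a term in the fit, an alternative chosen after seeing the data, the members' median difference between HF and LF was 0.189 over both batches, 75 were positive and 11 were called higher (2.57% of all genes higher). In batch 1 the median was 0.236, and in batch 2 it was 0.081 with 0 members called, 13 at an unadjusted p under 0.05 by edgeR. Mrpl1, Mrpl35, Mrpl39 and Mrps22 remained called over both batches, and Mrps7, Mrps21, Mrpl33 and Mrps33 did not, at 0.249, 0.205, 0.193 and 0.295. For HF-LF against HF the median became -0.092 in batch 1, -0.212 in batch 2 and -0.17 over both. In batch 2, 18 members were called lower (546 of all 14377 genes lower), and 1 over both (39 of 14385). For HF-LF against LF it became 0.148 in batch 1 and -0.121 in batch 2, opposite in sign, and 0.024 over both. With this term 0 members were called in any of these sets, and 11, 29 and 0 had an unadjusted p under 0.05 by edgeR. DESeq2 was not run with this term.

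Gene length moved with diet as well. Over both batches the median difference between HF and LF was 0.119 for the genes of up to 2054 bases of exon and 0.024, -0.028 and -0.099 for genes of up to 3280, up to 4957 and more bases. Members stood above the genes of their class in each, with medians of 0.25 over 52 genes, 0.311 over 9, 0.256 over 9 and 0.251 over 6. When each sample's trend with length was removed before the fit, a change chosen after seeing the data, the members' median fell from 0.255 to 0.157. Of the members, 67 were then positive and 19 were called higher (6.97% of all genes higher). Mrps22, Mrpl46, Mrps28, Mrps21 and Mrpl33 were then at 0.23, 0.247, 0.222, 0.029 and 0.036 and no longer called. The median between HF-LF and HF in batch 2 was then -0.111, with 15 members called lower (546 of all 14377 genes lower). Mrps21 and Mrpl33 are among the shortest members, and how far length sets their differences was not tested further.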

How the data were processed

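Colonic epithelium was isolated with EDTA, and stranded, ribosomal RNA-depleted total RNA libraries were sequenced. The authors deposited raw counts, whole reads per gene and sample, after trimming with cutadapt 1.2.1, mapping to mm10 with STAR 2.5 and counting with featureCounts 1.5.0-p1, per the labels and the study's methods. Gene annotation, use of strand and handling of multiply mapped reads are not given in the sources used here. Samples were grouped by title.

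The model was a quasi-likelihood fit of these counts in edgeR 4.0.16 under R 4.3.3 (TMM factors, filterByExpr, all 3 diets in 1 fit) within batch 1 (14428 genes tested), batch 2 (14377) and both with batch as a term (14385). Adjusted p are Benjamini-Hochberg over all genes tested, and calls took adjusted p under 0.05 and fold above 1.2, the thresholds of the study, which used DESeq2 (1.42.0 here, as an alternative). The script was tested on simulated data. CPM used TMM factors over all 23 samples. RPKM used GENCODE M21 exon lengths (94.8% of tested genes). No 2 samples had identical counts. The methods give 5 mice per regimen, so separate mice are not established for all samples, and p-values measure the spread between these samples, which may be technical. The smaller spread of batch 2 (biological coefficient of variation 0.102, against 0.158 in batch 1) goes with its larger number of calls. 

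Members and lists were chosen with earlier results of these data known. Genes named in the text were the 10 members with the smallest p in HF against LF over both batches, the 3 largest and 3 smallest differences of each batch, the 2 smallest p of each other comparison, the 3 highest and 3 lowest levels per length, Mrps18a to Mrps18c, Mrps30 and Mrps36, and up to 4 called genes of each pathway list, in addition to those said to be chosen after their values were seen, those listed because their samples do not overlap or their calls fall in a batch, and the partners, proteins and factors given for context.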

Additional observations from a re-analysis of the deposited data

Results flagged for a closer look

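Within groups of 4 or 5 samples, 120 sets of values (30 measures in 4 groups) were searched for a sample that stands apart by Dixon's criterion, which chance meets about once in 20 sets, and 8 did. In LF batch 2, replicate 4 was high for 4 genes, with Mrps21 at 39 CPM (others 30.4 to 31), Mrps33 at 9.05 CPM (others 6.31 to 6.54), Mrps25 at 28.7 CPM (others 25.7 to 26.1) and Mrps18a at 32.6 CPM (others 27.3 to 27.8). In that sample 73 of the 76 members were above the LF mean of their batch. Replicate 1 of the same group was high for Mrps27, at 27.3 CPM (others 25.3 to 25.5). Mrps18b was at 18.1 CPM in LF batch 1 replicate 4 (others 15 to 15.4) and at 24.3 CPM in HF-LF batch 2 replicate 3 (others 19.5 to 20.5). The latter sample was also high for Mrpl12, at 65.7 CPM (others 53.4 to 56).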

How the results depend on the processing

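The members' median difference between HF and either other diet kept its sign under every alternative. No named gene that was called for HF against LF over both batches reversed. DESeq2 called 5 members in batch 1 and 19 in batch 2 for HF against LF (2.06% and 5.61% of all genes higher), where edgeR called 0 and 11. Gene length offsets were run with annotated lengths, chosen after seeing the data because the counts come without lengths. They gave 19 members called over both batches for HF against LF (6.97% of all genes higher). For HF-LF against HF they gave 15 in batch 2 (median -0.111, 546 of all 14377 genes lower) and 13 over both (490 of 14385). With subunits assigned by structure, the large minus small median for HF-LF against HF was 0.006 in batch 1 and -0.002 over both, against -0.027 and -0.027 by symbol. Its sign in batch 1 thus changed with the assignment. With the fibroblast marker term, also chosen after seeing the data, members called for HF against LF were 0 in batch 2 (0.0556% of all genes higher) and 11 over both (2.57%). For HF-LF against HF they were 18 in batch 2 (546 of all 14377 genes lower) and 1 over both (39 of 14385), with a batch 1 median of -0.092. RLE factors, library totals alone and no filter on low counts kept every count of members called within 1.5 times.

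Leaving out 1 replicate at a time gave, for HF against LF, counts of 0 to 21 in batch 1, 0 to 33 in batch 2 and 23 to 51 over both, with medians of 0.213 to 0.402, 0.195 to 0.266 and 0.237 to 0.296. For HF-LF against HF the counts were 0 to 0, 0 to 46 and 12 to 43, with medians of -0.342 to -0.157, -0.299 to -0.217 and -0.284 to -0.226. For HF-LF against LF the counts stayed at 0, with medians of -0.001 to 0.136, -0.071 to 0.021 and -0.008 to 0.049. The number of calls within a batch is therefore not a stable quantity with 3 HF samples, and the cause of its moves was not tested. The share of all genes called was not examined for these omissions, so the moves cannot be read as particular to the members.

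Samples of different diets with the same replicate number had a median r of 0.126 in batch 1 (-0.471 to 0.47) and 0.076 in batch 2 (-0.134 to 0.476). Pairs with different numbers had lower medians, -0.029 (-0.498 to 0.515) and -0.012 (-0.38 to 0.33), with ranges that overlapped. The main fit did not take the numbers as pairs. With the replicate block the counts for HF against LF were 0 in batch 1, 22 in batch 2 and 40 over both (0.208%, 6.2% and 9.55% of all genes higher). For HF-LF against HF they were 35 in batch 2 (1256 of all 14377 genes lower) and 31 over both (796 of 14385).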
